A study of Mus musculus with 18 samples.

Results

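Described here are 41 genes of mitosis and of the kinetochore, in single cells of the mouse stomach. They were chosen by what their products do, with earlier results of these data known. They are 41 of the 26114 genes listed in dataset 1 and 41 of the 29195 listed in dataset 2. Their levels were compared over the clusters into which the authors had placed the cells, first within the isthmus, the progenitor zone of the gastric gland, and then outside it.

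Cells were taken from the glandular stomach of male C57BL/6J wild type mice, 10 weeks old, and measured by Quartz-Seq2, in which single cells are sorted into wells and each transcript molecule is counted once by its unique molecular identifier (UMI). Dataset 1 held corpus and antrum cells as 2 pools, tube1 and tube2, and dataset 2 held corpus cells as 2 other pools, K and T. Each pool was made from 3 mice by its own operator, so mice and operator cannot be told apart between pools, and the cells of dataset 1 carry no label of their region. Dead cells were removed with a dye in both datasets, and in dataset 2 only particles with Hoechst-stained DNA were sorted, which removed debris. The authors kept 491 cells in 15 clusters in dataset 1 and 3993 cells in 20 clusters in dataset 2.

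Mitosis is driven by Cdk1 bound to cyclins A and B, and FOXM1 is a transcription factor that raises the transcription of many late cell cycle genes. The kinetochore is the protein plate on the centromere that holds the spindle microtubules, and the spindle checkpoint delays anaphase until every kinetochore is held. The anaphase-promoting complex with CDC20 then marks securin and cyclin B for destruction, separase cuts cohesin, and the midzone and the contractile ring divide the cell. Most of these genes are transcribed in a wave in G2 and M and their transcripts are low in resting cells. In the stomach corpus, dividing cells are found mainly in the isthmus, from which pit cells move towards the lumen and neck cells towards the base.

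A known feature of late cell cycle promoters is a pair of short elements, the cell cycle genes homology region (CHR) and the CCAAT box bound by NF-Y. RefSeq promoter windows, from 250 bases before to 50 bases after the start in build GRCm38.p6, were matched by symbol for 33 of the 41 genes, in 35 windows. The letters TTTGAA or TTCGAA, on either strand, were present in 28 of the 35 windows (80%) and in 19.2% of all 32851 windows. The letters CCAAT, on either strand, were present in 26 windows (74.3%) against 37.4%, and both were present in 24 (68.6%) against 7.52%. The windows of 5 genes that the results turn on are shown, with these letters or their reverse complement in capitals. *Top2a* and *Prc1* differed most between the 2 clusters labelled G2/M, *Ccnb2* and *Cenpa* did not differ there beyond the test's threshold, and *Pttg1* was the gene with the profile least like the others over the epithelial clusters. *Top2a* lies at chr11:99024140-99024439 on the minus strand, *Prc1* at chr7:80294201-80294500 on the plus strand, *Ccnb2* at chr9:70421505-70421804 on the minus strand, *Cenpa* at chr5:30666636-30666935 on the plus strand and *Pttg1* at chr11:43425932-43426231 on the minus strand.
Top2a: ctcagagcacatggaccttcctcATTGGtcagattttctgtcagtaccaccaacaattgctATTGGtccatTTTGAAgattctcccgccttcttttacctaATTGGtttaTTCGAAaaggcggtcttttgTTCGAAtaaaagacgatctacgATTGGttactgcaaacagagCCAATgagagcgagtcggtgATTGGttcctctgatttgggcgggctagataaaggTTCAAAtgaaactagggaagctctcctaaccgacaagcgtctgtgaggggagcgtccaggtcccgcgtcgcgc
Prc1: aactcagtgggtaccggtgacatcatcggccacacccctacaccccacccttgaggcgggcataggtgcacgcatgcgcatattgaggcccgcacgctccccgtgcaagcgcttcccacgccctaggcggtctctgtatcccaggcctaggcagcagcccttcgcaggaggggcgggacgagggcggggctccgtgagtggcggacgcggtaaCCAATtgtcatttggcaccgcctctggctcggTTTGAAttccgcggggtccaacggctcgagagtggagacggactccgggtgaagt
Ccnb2: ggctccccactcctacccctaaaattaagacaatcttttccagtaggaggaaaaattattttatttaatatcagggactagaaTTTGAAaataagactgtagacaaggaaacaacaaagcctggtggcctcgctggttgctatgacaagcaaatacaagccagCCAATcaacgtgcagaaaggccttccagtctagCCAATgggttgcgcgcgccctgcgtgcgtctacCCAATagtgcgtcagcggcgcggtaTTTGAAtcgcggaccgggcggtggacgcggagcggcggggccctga
Cenpa: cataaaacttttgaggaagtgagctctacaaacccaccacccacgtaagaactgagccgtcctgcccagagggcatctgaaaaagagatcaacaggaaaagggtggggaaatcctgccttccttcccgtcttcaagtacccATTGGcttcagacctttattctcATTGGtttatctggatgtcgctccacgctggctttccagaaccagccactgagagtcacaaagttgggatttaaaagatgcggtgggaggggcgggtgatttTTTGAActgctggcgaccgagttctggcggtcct
Pttg1: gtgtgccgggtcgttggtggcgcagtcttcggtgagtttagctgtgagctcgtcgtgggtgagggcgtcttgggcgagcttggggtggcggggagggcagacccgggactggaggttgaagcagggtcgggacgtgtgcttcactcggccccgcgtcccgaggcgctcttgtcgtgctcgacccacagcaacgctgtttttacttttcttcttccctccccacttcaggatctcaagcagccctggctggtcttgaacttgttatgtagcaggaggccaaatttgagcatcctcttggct
The *Top2a* window held 4 matches of the first element and 6 of the second, *Ccnb2* held 2 and 3, *Cenpa* 1 and 2, and *Prc1* 1 and 1. The *Pttg1* window held none of either, which says only that these letters are not in this window. The windows of *Nuf2*, *Nusap1*, *Mad2l1* and *Birc5*, not shown, held none of either too. The profiles of these 4 genes over the epithelial clusters were close to the mean of the 41 genes (Pearson's r of 0.976 to 0.992).

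Plates of dataset 1 held 3054370 to 5346035 UMIs and plates of dataset 2 held 10540256 to 12850942, and the plates of a dataset carry the same 384 well barcodes, so a cell is named by plate and barcode. The isthmus of dataset 2 consists of clusters 3, 5, 6, 9 and 11, with 339, 279, 270, 218 and 179 cells. The isthmus markers *Stmn1*, *Hmgb2* and *Tcf19* summed to 910 CPM (UMIs scaled to the same total in every sum) in cluster 6, 744 in cluster 5, 371 in cluster 9, 343 in cluster 3 and 79.7 in cluster 11. For these 3 markers cluster 11 lay above the other epithelial types, at 11.01 to 61.1 CPM, but below clusters 15 and 18 outside the epithelium, at 85.8 and 138 CPM. Pit markers were highest in the mature pit cluster 13 and parietal markers in cluster 1. The list of *Muc6*, *Tff2* and *Cd44*, fixed for neck cells, was highest in the pre-pit cluster 4, and chief cell markers were highest in the neck cluster 12, so these names are the authors' and rest on more than these lists. Chief cells, of which the authors' phase calls put 178 of 180 in G1 and 2 in S, served as the background for the share of cells with a transcript.

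The authors' phase calls put all 279 cells of cluster 5 in G2/M, 142 cells of cluster 6 in G2/M and 128 in S, 196 of the 218 cells of cluster 9 in G2/M, all 339 cells of cluster 3 in S and 153 cells of cluster 11 in G1. Of the 41 genes, 26 are in Seurat's list of 54 G2/M genes from which such scores are usually made and 0 in its list of 43 S genes, so these calls are not independent of the levels described. The clusters also were made from the same counts, so the tests between clusters describe how far apart they lie. For each pool the UMIs of all cells in a cluster were added up, and the 28 sums of 14 epithelial clusters were fitted together with edgeR's quasi-likelihood test, with 2 pools per cluster and Benjamini-Hochberg adjustment over all 12922 genes tested. Genes with an adjusted p below 0.05 are referred to as called. Levels in the isthmus are CPM after TMM scaling, and for each gene the pool K value is given first. All 41 genes passed the filter on low counts.

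The levels fell from cluster 5 to cluster 6 and then to clusters 9, 3 and 11 for most of the genes. Of the 41 genes, 26 followed the order 5, 6, 9, 3, 11 exactly. Cluster 6 came before cluster 5 for *Ndc80*, *Spc24*, *Bub1*, *Aurkb* and *Foxm1*, which otherwise kept that order, and for *Incenp* and *Top2a*, in which cluster 3 also came before cluster 9. Cluster 9 came before cluster 6 for *Ccnb1* and *Cdc20*, and for *Cenpa*, *Cenpf*, *Ccnb2* and *Cdc25c*, in which cluster 11 also came before cluster 3. *Ube2c* kept the main order but for cluster 11 before cluster 3, and *Pttg1* ran 9, 5, 11, 3, 6. All 4 steps between neighbours in a gene's own order were called for 15 genes, 3 steps for 21, 2 steps for *Mad2l1*, *Aurkb*, *Incenp* and *Top2a*, and 1 step for *Pttg1*. Over all 20 clusters of dataset 2 the highest mean level was in cluster 5 for 33 genes, in cluster 6 for 7 and in cluster 19 for *Pttg1*.

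**Figure D1:**
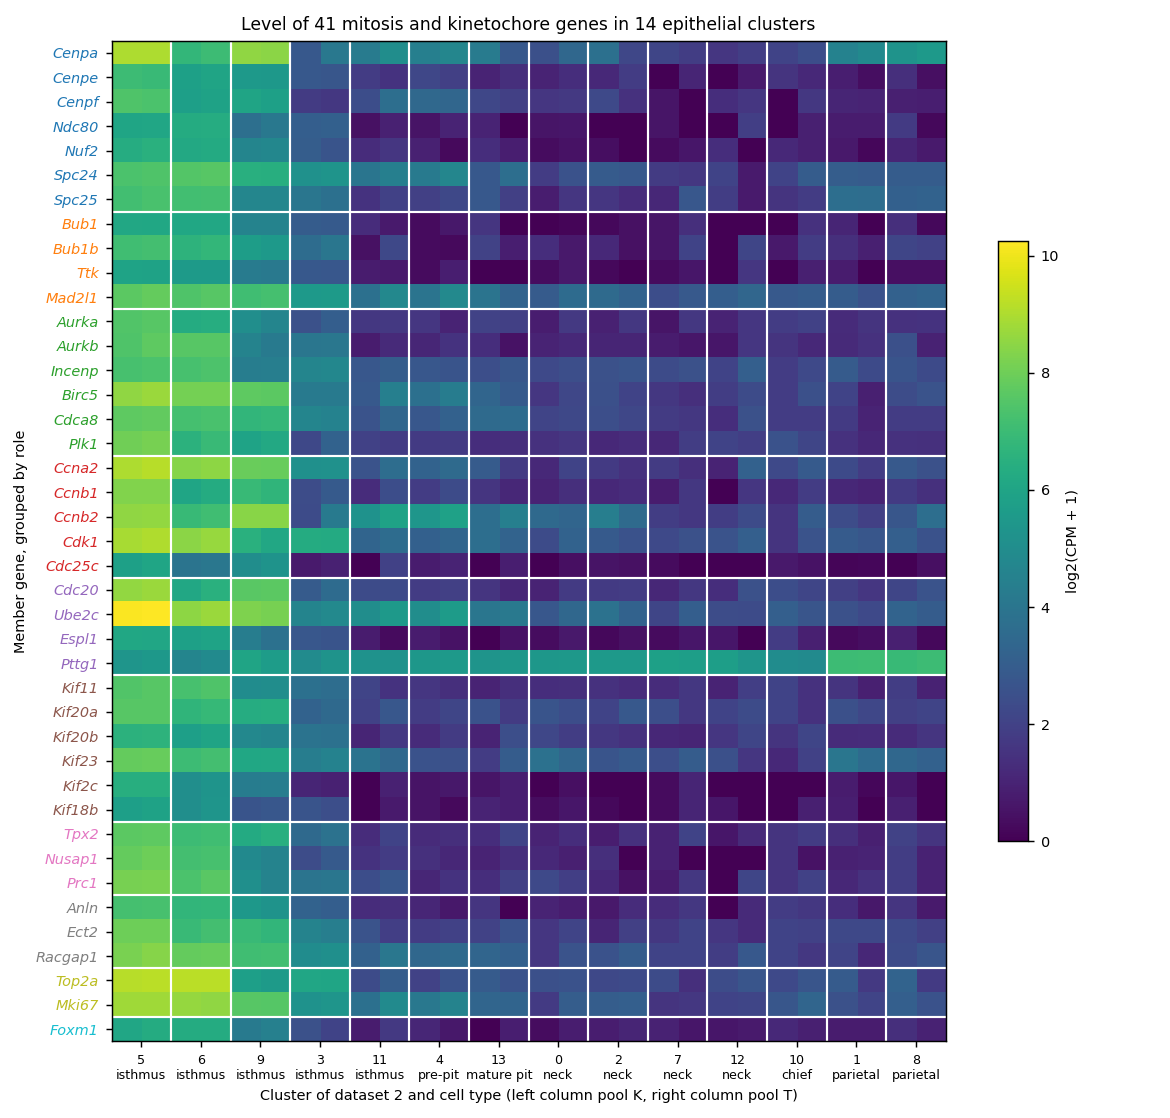
Level of the 41 genes in the 14 epithelial clusters of dataset 2. Rows are genes grouped by role, columns are clusters with pool K on the left and pool T on the right, and colour gives log2(CPM + 1). Clusters 5 and 6 are brighter than the clusters outside the isthmus for 40 of the genes, cluster 9 is bright for some of them (*Ccnb2*, *Cenpa*) and dim for others (*Kif18b*), and *Pttg1* is brightest in the parietal clusters 1 and 8.

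Clusters 5 and 9 were both made up mainly of cells called G2/M, and they differed in nearly all of the genes. Against cluster 9, 38 genes were higher in cluster 5, *Pttg1* was lower, and *Ccnb2* and *Cenpa* were not called. Among all genes tested, 11.1% were called either way in this comparison, 7.7% higher and 3.44% lower. The log2 differences of the 41 genes had a median of 1.73 and ran from -0.42 to 3.54, while the median over all genes was 0. Cells of cluster 5 were deeper, with a median of 50083 UMIs against 31356 in cluster 9.

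The genes furthest apart between these clusters were *Top2a*, *Prc1* and *Kif18b*, which belong to different roles. *Top2a*, which untangles sister DNA and is needed for condensed chromosomes, stood at 574 and 589 CPM in cluster 5 and at 53.8 and 46.4 CPM in cluster 9, a log2 difference of 3.54 (SE 0.19, adjusted p = 1.1e-12). *Prc1*, which bundles the antiparallel microtubules of the midzone, stood at 279 and 289 CPM against 33.1 and 22.9 CPM, a log2 difference of 3.37 (SE 0.17). *Kif18b*, a kinesin that trims astral microtubules, stood at 54.6 and 58.3 CPM against 5.38 and 5.83 CPM, a log2 difference of 3.32 (SE 0.29). In each of them both pools of cluster 5 lay far above both pools of cluster 9.

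The passenger complex did not move as one. *Aurkb*, its kinase, stood at 173 and 206 CPM in cluster 5 and 23.2 and 17.3 CPM in cluster 9, and *Incenp*, its scaffold, at 154 and 161 CPM against 19.5 and 19.8 CPM. The other 2 subunits differed less, *Birc5* (survivin) with 379 and 423 CPM against 208 and 203 CPM and *Cdca8* (borealin) with 207 and 220 CPM against 107 and 111 CPM. On the log2 scale the differences were 3.25 for *Aurkb*, 3.00 for *Incenp*, 0.96 for *Birc5* and 0.97 for *Cdca8*, with SEs of 0.11 to 0.17, and all 4 were called. *Aurka*, the kinase of the spindle poles, differed by 2.69 and *Plk1*, the polo kinase, by 2.02.

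The cyclins split in the same way from their kinase. *Cdk1* stood at 480 and 525 CPM in cluster 5 and 90.4 and 69.4 CPM in cluster 9, a log2 difference of 2.67 (SE 0.13). *Ccnb2*, one of the B cyclins, stood at 374 and 387 CPM against 339 and 344 CPM, a log2 difference of 0.16 (SE 0.22, adjusted p = 0.73), and its pools did not overlap between the clusters. *Ccna2* differed by 1.17, *Ccnb1* by 1.49 and *Cdc25c*, the phosphatase that activates Cdk1, by 0.79, all called. The call of *Cdc25c* was lost with thinned cells (0.70, adjusted p = 0.13) and with G2/M cells only (0.66, adjusted p = 0.051). *Ccnb2* and *Cdk1*, whose products act as one enzyme, thus lay at opposite ends of this group in their difference.

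Among the 7 kinetochore genes 6 were called higher in cluster 5. *Cenpa*, the centromeric histone H3 variant, stood at 508 and 513 CPM in cluster 5 and 370 and 353 CPM in cluster 9, a log2 difference of 0.50 (SE 0.20, adjusted p = 0.12). It was called without the filter on low counts, with sums per plate and with thinned cells. Of the NDC80 complex, which grips the microtubule, *Ndc80*, *Nuf2* and *Spc25* differed by 2.17, 1.77 and 2.56 and *Spc24* by 0.95. *Cenpe*, a motor, and *Cenpf*, a coat protein of the outer kinetochore, differed by 1.53 and 1.52.

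All 4 checkpoint genes were higher in cluster 5, with log2 differences of 1.57 for *Bub1*, 1.56 for *Bub1b*, 1.77 for *Ttk* and 0.59 for *Mad2l1*. *Mad2l1*, the inhibitor of CDC20, stood at 201 and 229 CPM against 135 and 150 CPM. Of the anaphase genes, *Cdc20* (1.02), the ubiquitin-conjugating enzyme *Ube2c* (2.04) and separase *Espl1* (2.07) were higher in cluster 5. *Pttg1*, which encodes securin, stood at 40.2 and 43.2 CPM in cluster 5 and 63.2 and 49.6 CPM in cluster 9, a log2 difference of -0.42 (SE 0.12, adjusted p = 0.021), and with thinned cells this call was lost (-0.33, adjusted p = 0.40). The 6 kinesins differed by 1.23 to 3.32 with a median of 2.04, the 3 cytokinesis genes *Anln*, *Ect2* and *Racgap1* by 1.14 to 1.90, the spindle assembly factor *Tpx2* by 1.34 and *Nusap1* by 3.23, *Mki67* by 1.24 and *Foxm1* by 1.90. All of these were called.

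**Figure D2:**
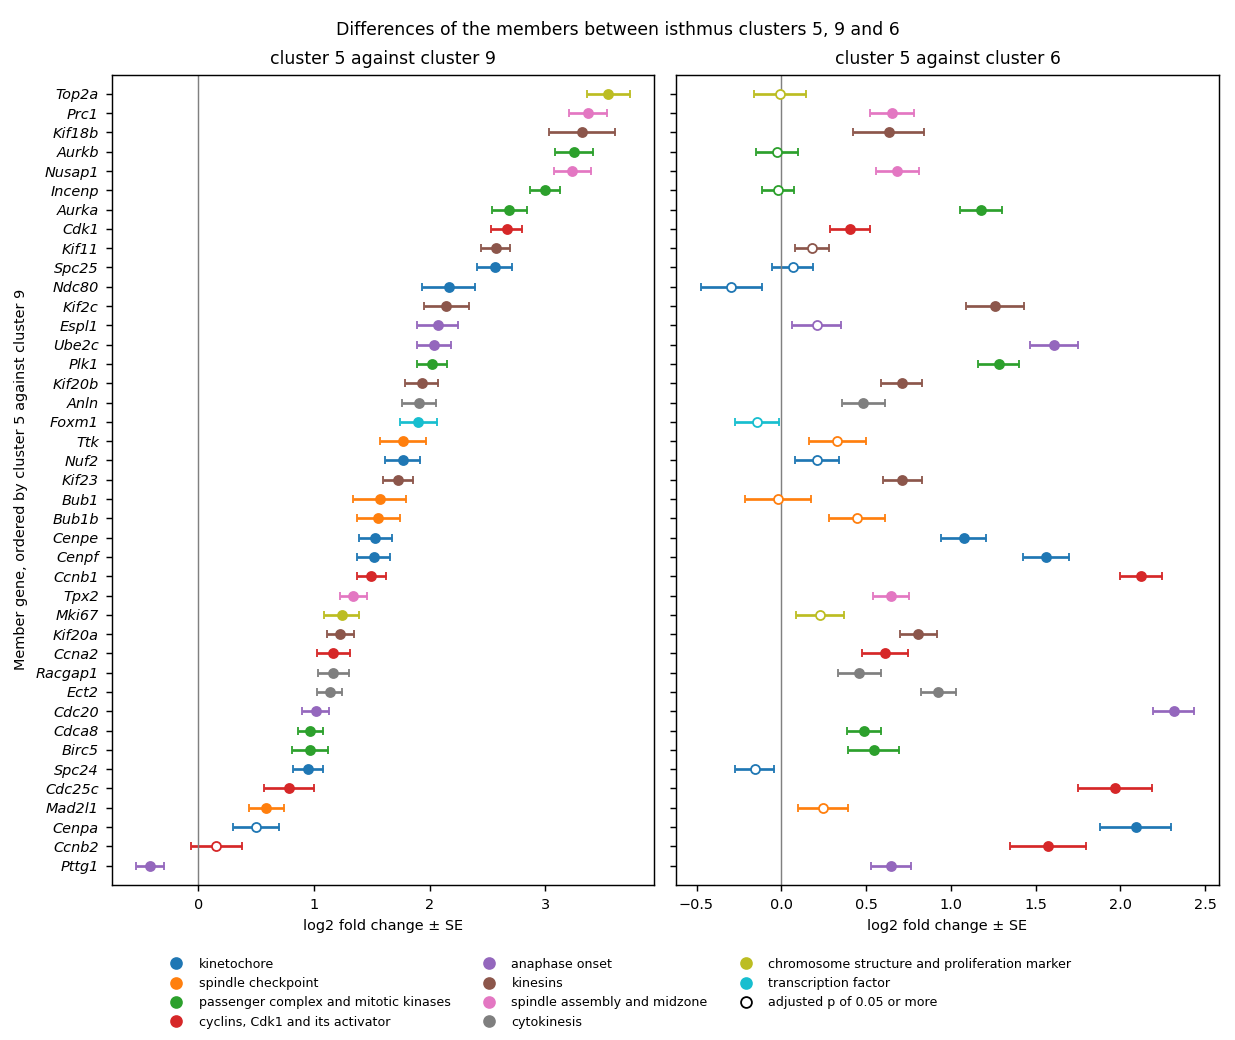
Differences of the 41 genes between isthmus clusters, as log2 fold change ± SE from the edgeR fit (2 pools per cluster), for cluster 5 against cluster 9 on the left and against cluster 6 on the right. Colours give roles and open circles are not called. Genes are ordered by the left panel, from *Top2a* at 3.54 to *Pttg1* at -0.42, and in the right panel the values range from -0.29 for *Ndc80* to 2.32 for *Cdc20*.

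A small number of deep cells carried much of these transcripts in cluster 9. Of its 218 cells, 16 (9 of pool K and 7 of pool T) had over 2 times the cluster's median UMIs, from 63439 to 162767, and they held 17.2% of its UMIs. These 16 cells held 70.3% of the cluster's *Aurkb* UMIs, 70.0% of its *Prc1*, 65.4% of its *Nusap1*, 59.6% of its *Top2a* and 57.2% of its *Cdk1*. They held 13.51% of its *Ccnb2*, 13.8% of its *Cdc25c*, 16.8% of its *Mad2l1* and 18.3% of its *Cenpa*, which is near their share of all UMIs. They had a median of 40 of the 41 genes per cell, against 25 in the other 202 cells. Summed parietal markers stood at 1125 CPM in pool K and 187 CPM in pool T of cluster 9, against 197 to 408 CPM in clusters 3, 5, 6 and 11, and their part in these differences was not tested.

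With all cells over 2 times their cluster's median left out, the median log2 difference between clusters 5 and 9 rose from 1.73 to 1.96, and 11 genes moved by more than 1.5 times. The log2 difference became 4.64 for *Top2a*, 4.88 for *Prc1* and 4.76 for *Aurkb*, and stayed at 0.12 for *Ccnb2* and 0.54 for *Cenpa*. With each cell thinned to 10000 UMIs the median was 1.90, and 5 genes (*Aurkb*, *Cdk1*, *Nusap1*, *Prc1* and *Top2a*) moved that far. With only the cells called G2/M it was 1.58 and 0 genes moved that far. Whether the difference between clusters 5 and 9 was itself unequal in the 2 pools was tested in edgeR with plates as units, which are not separate mice. It was called for 0 of the 41 genes and 0 of 8818 genes tested, with 1 of the 41 at an unadjusted p under 0.05.

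Cluster 6, split between S and G2/M calls, differed from cluster 5 in a subset of the genes. Against cluster 6, 26 genes were higher in cluster 5, 0 were lower and 15 were not called, where 18.4% of all genes were called either way, 8.46% higher and 9.97% lower. The median log2 difference was 0.61. The differences were widest for *Cdc20*, *Ccnb1* and *Cenpa*. *Cdc20*, the activator of the anaphase-promoting complex, stood at 388 and 421 CPM in cluster 5 and 70.8 and 90.7 CPM in cluster 6, a log2 difference of 2.32 (SE 0.12). *Ccnb1* stood at 315 and 312 CPM against 64.9 and 78.6 CPM, a log2 difference of 2.12 (SE 0.13), and *Cenpa* at 508 and 513 CPM against 111 and 128 CPM, a log2 difference of 2.09 (SE 0.21). In all 3 the lowest pool of cluster 5 was more than 3 times the highest pool of cluster 6.

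By role, all 5 genes of the cyclin group were higher in cluster 5 than in cluster 6 (median log2 difference 1.58), as were 3 of the 4 anaphase genes (1.13), 5 of the 6 kinesins (0.71), the 3 midzone and spindle assembly genes (0.65) and the 3 cytokinesis genes (0.48). Among the 6 passenger and mitotic kinase genes 4 were called, and *Aurkb* (-0.03) and *Incenp* (-0.02) were not. Of the 7 kinetochore genes *Cenpa*, *Cenpe* and *Cenpf* were called, and the 4 NDC80 complex genes were not. The 4 checkpoint genes, *Top2a* and *Mki67*, and *Foxm1* were not called either. *Ndc80* stood at 64.6 and 66.2 CPM in cluster 5 and 79.1 and 81.3 CPM in cluster 6, a log2 difference of -0.29 (SE 0.18, adjusted p = 0.29). In simulated counts for this comparison, 2-fold changes were called for 25 of 100 genes, but every simulated gene was given the same spread. That share therefore does not tell how often a 2-fold difference in these genes would be missed. In the measured counts, smaller log2 differences were called in the cyclin group, where the lowest was 0.41. Those of the checkpoint genes, up to 0.45, were not called.

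Between clusters 6 and 9 the genes went both ways. Cluster 6 was higher for 32 genes and lower for 6, and 3 were not called, where 32.1% of all genes were called, 17.1% higher and 15% lower. *Top2a* (582 and 588 CPM against 53.8 and 46.4 CPM), *Aurkb* (193 and 193 CPM against 23.2 and 17.3 CPM) and *Incenp* (154 and 165.4 CPM against 19.5 and 19.8 CPM) were highest above cluster 9, with log2 differences of 3.55, 3.28 and 3.02. The 6 genes that were higher in cluster 9 were *Cenpa*, *Ccnb2*, *Cdc20*, *Cdc25c*, *Pttg1* and *Ccnb1*, with log2 differences of -1.59, -1.42, -1.30, -1.18, -1.07 and -0.63. *Ccnb2* stood at 119 and 136 CPM in cluster 6, below both pools of cluster 9. *Cenpf* (-0.04), *Ect2* (0.21) and *Mad2l1* (0.34) were not called.

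Taking the 3 comparisons side by side, 18 genes were higher in cluster 5 than in 6 and in 6 than in 9. Another 14, among them the NDC80 complex, *Bub1*, *Bub1b*, *Ttk*, *Aurkb*, *Incenp*, *Top2a* and *Foxm1*, were higher in both cluster 5 and cluster 6 than in cluster 9 and were not called between 5 and 6. *Ccnb1*, *Cdc25c* and *Cdc20* were highest in cluster 5 and higher in cluster 9 than in 6. These comparisons share the same sums of each cluster.

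Cell by cell, the same split was seen as a difference in the share of cells with a transcript. After thinning to 10000 UMIs per cell, *Ccnb2* had a UMI in 97.8% of cells of cluster 5, 66.9% of cluster 6 and 96.3% of cluster 9, against 2.22% of chief cells. *Cenpa* had one in 98.9%, 58.7% and 95.4%, against 2.22% of chief cells. *Aurkb* had one in 79.2%, 86.6% and 8.26%, and in 0 of 180 chief cells, which allows up to 1.67% of cells with a UMI at this thinned depth. Without thinning *Aurkb* had one in 89.6%, 99.3% and 21.6% of cells, and in 3.33% of chief cells. *Prc1* (87.5%, 80.7% and 10.1%, chief cells 2.22%), *Nusap1* (82.8%, 73.6% and 11.01%) and *Top2a* (87.1%, 98.5% and 19.7%, chief cells 2.78%) followed *Aurkb*. *Cdc20* (94.6%, 50.2% and 66.1%) and *Ccnb1* (92.8%, 49.4% and 54.6%) lay between. Median depth was 50083, 45217 and 31356 UMIs in clusters 5, 6 and 9 and 34844.5 in chief cells before thinning.

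**Figure D3:**
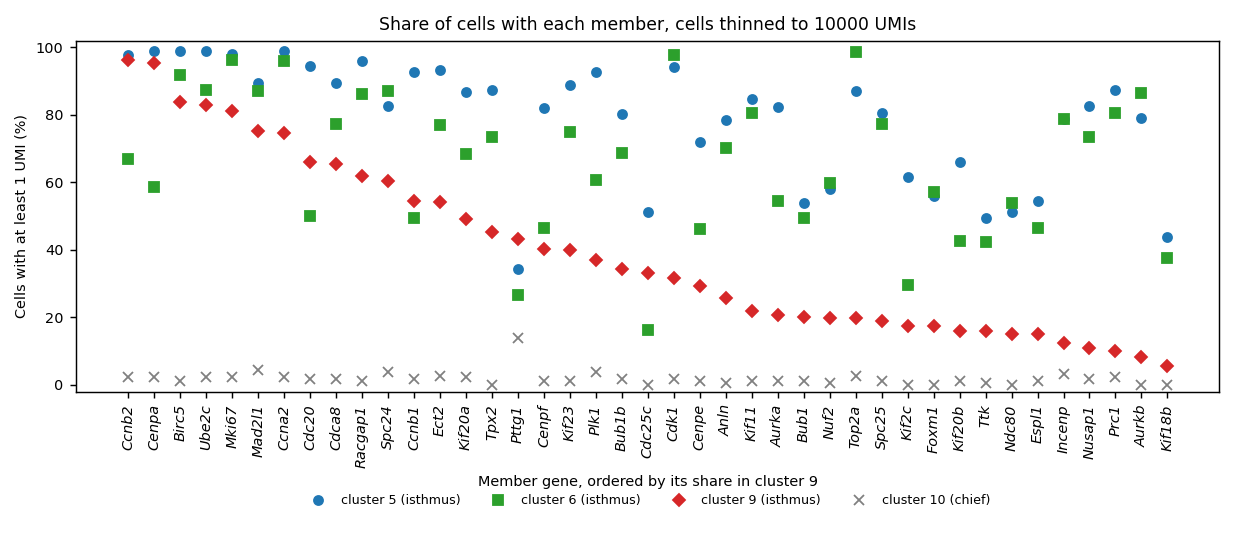
Share of cells with at least 1 UMI of each gene, in percent, in clusters 5, 6 and 9 and in chief cells (cluster 10), after thinning each cell to 10000 UMIs. Genes are ordered by their share in cluster 9, from *Ccnb2* at 96.3% to *Kif18b* at 5.50%, while chief cells stay under 5% except for *Pttg1* at 13.9%.

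Counting how many of the 41 genes a thinned cell showed gave a median of 33 in cluster 5, 28 in cluster 6, 16 in cluster 9, 4 in cluster 3 and 2 in cluster 11. At least 10 were present in 279 of 279 cells of cluster 5, 268 of 269 of cluster 6, 178 of 218 of cluster 9 (81.7%, Wilson 95% interval 76.0% to 86.2%), 71 of 335 of cluster 3 (21.2%) and 4 of 178 of cluster 11 (2.25%). In cluster 9 the share was 85.6% in pool K and 78.9% in pool T. These intervals cover counting error only. The share in cluster 9 was 98.6% with at least 5 of the genes and 33.0% with at least 20, and 99.5% without thinning. The lower clusters depended more on depth, and without thinning at least 10 were present in 187 of 339 cells of cluster 3 (55.2%) and 51 of 179 cells of cluster 11 (28.5%).

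**Figure D4:**
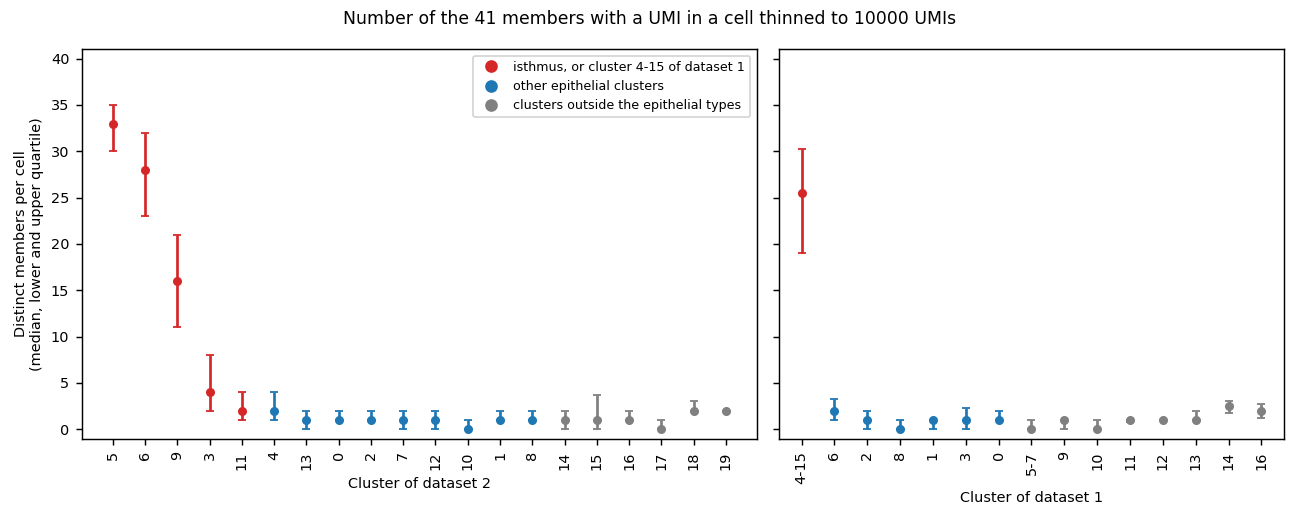
Number of the 41 genes with a UMI per cell after thinning to 10000 UMIs, by cluster of dataset 2 (left) and dataset 1 (right), as the median with the lower and upper quartile. Isthmus clusters 5, 6 and 9 (medians 33, 28 and 16) and cluster 4-15 of dataset 1 (25.5) stand above all other clusters.

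Cluster 3, all S phase by the calls, was lower than cluster 9 for most of the genes, but not for 5 of them. Cluster 9 was higher than cluster 3 for 36 genes, where 28.9% of all genes were called, 14.9% higher and 14% lower, and the 5 not called were *Top2a*, *Incenp*, *Kif18b*, *Aurkb* and *Cdk1*. *Cdk1* stood at 78.7 and 75.9 CPM in cluster 3 against 90.4 and 69.4 CPM in cluster 9, a log2 difference of 0.03. *Ccnb2* stood at 4.02 and 17.1 CPM in cluster 3, a log2 difference of 5.06 (SE 0.30) below cluster 9, and *Cdc25c* and *Cenpa* lay 5.41 and 5.04 below it. Without the deep cells, *Top2a* and *Incenp* were called lower in cluster 9 than in cluster 3, by -1.44 and -1.04, as were *Aurkb* (-1.10) and *Cdk1* (-0.97). With thinned cells *Aurkb* was not called (-0.71, adjusted p = 0.15), while *Top2a* (-1.17), *Incenp* (-1.10) and *Cdk1* (-0.49) were called lower. Of the 36 genes, *Prc1* (0.91) lost its call without the deep cells (-0.53, adjusted p = 0.18), as did *Kif20b* (0.91 to 0.36), *Spc25* (0.84 to 0.22) and *Ndc80* (0.93 to 0.44). With thinned cells the same 4 genes were not called, at -0.14 for *Prc1*, 0.49 for *Kif20b*, 0.34 for *Spc25* and 0.97 for *Ndc80*. Against cluster 3, all 41 genes were higher in cluster 5 (median log2 difference 3.75, 28.2% of all genes called, 14.9% higher and 13.3% lower) and 40 were higher in cluster 6 (3.37, 16.3% called, 9.95% higher and 6.33% lower), with *Pttg1* not called at -0.33.

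Cluster 11, mainly called G1, was the lowest isthmus cluster for all of the genes but *Cenpa*, *Cenpf*, *Ccnb2*, *Cdc25c*, *Ube2c* and *Pttg1*. All 41 genes were higher in cluster 9 than in cluster 11 (median log2 difference 3.78, 19.1% of all genes called, 10.5% higher and 8.56% lower), 40 were higher in cluster 5 (5.86, 27.7% called, 14.7% higher and 13% lower) and 40 in cluster 6 (5.14, 36% called, 18.3% higher and 17.7% lower). Cluster 3 was higher than cluster 11 for 32 genes and lower for 4, where 23.2% of all genes were called, 11.9% higher and 11.4% lower. *Aurkb* stood at 15.4 and 15.6 CPM in cluster 3 and 0.736 and 1.36 CPM in cluster 11, a log2 difference of 3.76 (SE 0.42). The 4 genes that were lower in cluster 3 were *Ccnb2*, *Cenpf*, *Cenpa* and *Ube2c*, with log2 differences of -2.27, -1.97, -1.26 and -0.62. *Ccnb2* stood at 36.1 and 59.8 CPM in cluster 11 and had a UMI in 25.3% of its thinned cells, against 6.27% in cluster 3 and 2.22% of chief cells. *Espl1*, *Kif18b* and *Ttk* had at most 3 UMIs in each sum of cluster 11, and in cluster 5 they were at least 77.5-fold, 65.0-fold and 68.7-fold higher, with 3 UMIs per sum as the floor. Genes of the response to tissue dissociation summed to 9061 and 8335 CPM in cluster 11 against 2138 to 6519 CPM in the other isthmus sums, and their part in these differences was not tested.

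**Figure D5:**
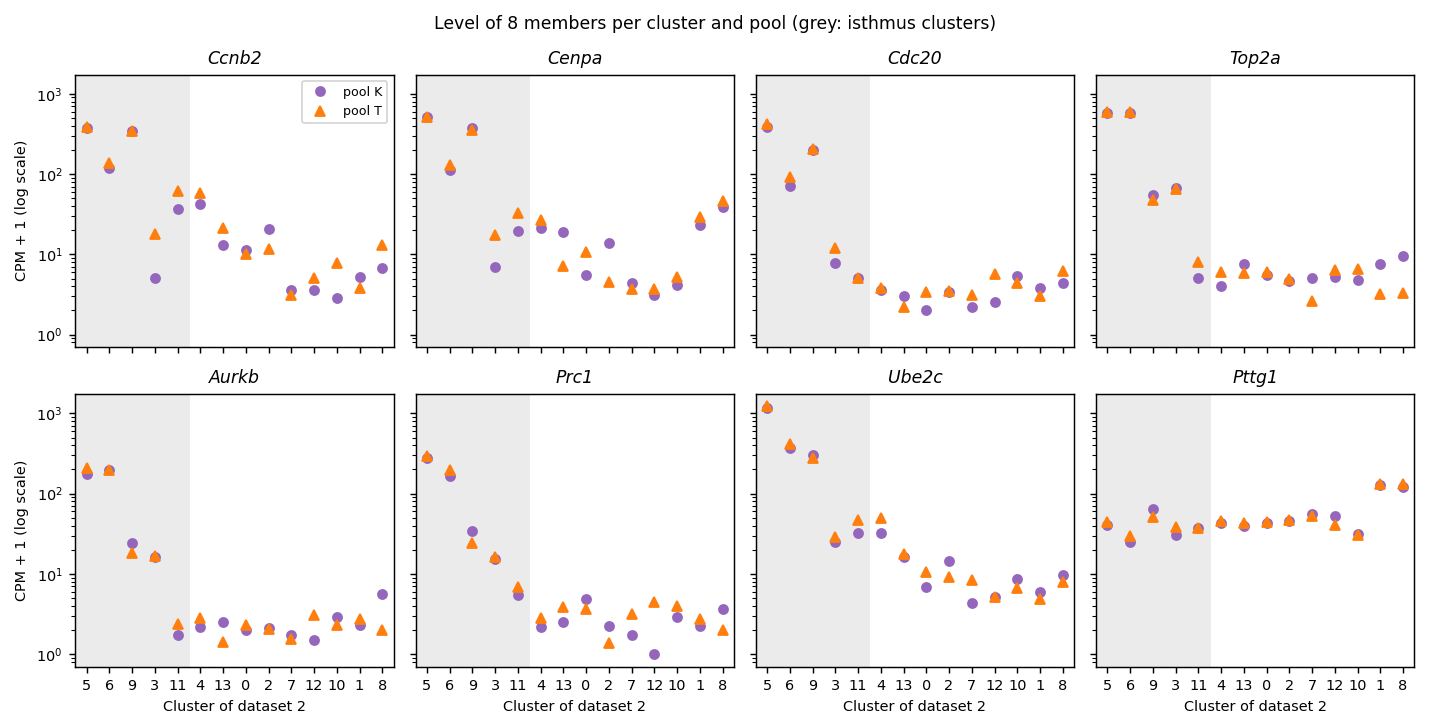
Level of 8 of the genes per cluster and pool in dataset 2, as CPM + 1 on a log axis, with circles for pool K, triangles for pool T and isthmus clusters on grey. *Ccnb2* and *Cenpa* are high in cluster 9 where *Top2a*, *Aurkb* and *Prc1* are low, and among epithelial clusters *Pttg1* is highest in the parietal clusters 1 and 8. The plotted CPM are after TMM scaling.

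Outside the isthmus the genes were low. Against the other 5 epithelial types, in the fit of 12 sums per type and pool, the isthmus was higher for 40 genes and lower for *Pttg1*, where 51.3% of all 13894 genes were called, 28.1% higher and 23.1% lower. The median log2 difference was 5.69. *Kif2c*, a kinesin that takes microtubules apart, stood at 29.8 and 32.9 CPM in the isthmus and at 0 to 0.713 CPM in the sums of the other types. The differences were smallest, apart from *Pttg1*, for *Mad2l1* at 3.77 and *Spc24* at 3.84.

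In plain CPM without TMM scaling, the 40 genes without *Pttg1* summed to 11340 and 11615 in cluster 5, 6749 and 7261 in cluster 6, 3962 and 3825 in cluster 9, 773 and 822 in cluster 3 and 262 and 435 in cluster 11. The pre-pit cluster 4 followed with 246 and 312, close to cluster 11. Mature pit cells had 166.2 and 141.3, parietal cluster 8 had 165.8 and 144.3, and chief cells had the lowest sum of the epithelial types, 57.4 and 73.4. At least 10 of the genes were present in 17 of 2527 thinned epithelial cells outside the isthmus (0.673%, Wilson 95% interval 0.420% to 1.07%), of which 6 were pre-pit cells and 0 were among 180 chief cells. Without thinning they were present in 96 of 2541 cells, of which 43 were among the 291 pre-pit cells, where they held 43.8% of the UMIs of the 41 genes, and 1 was a chief cell. Outside the epithelial types they were present in 2 of 135 cells.

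Within the pit lineage, pre-pit cells were higher than mature pit cells for 6 genes and lower for 0, where 10.4% of all genes were called, 3.84% higher and 6.52% lower. *Ccnb2* stood at 37.1 and 51.4 CPM in pre-pit cells and 10.9 and 17.8 CPM in mature pit cells, a log2 difference of 1.60 (SE 0.29), and *Ube2c* at 28 and 43.3 CPM against 13.6 and 14.6 CPM, a difference of 1.34 (SE 0.22). *Cenpf* (1.63), *Spc24* (1.23), *Mki67* (1.16) and *Birc5* (1.07) were called too. *Ccnb2*, *Ube2c* and *Cenpf* were also among the 4 genes that were higher in cluster 11 than in cluster 3. The count was 3 without pool T of either type. With the pool as a block 8 genes were higher and 1 lower.

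Neck and chief cells differed in 4 of the genes, where 38.6% of all genes were called, 19.9% higher and 18.6% lower. *Kif23*, the motor of the centralspindlin complex, stood at 6.40 and 7.35 CPM in neck cells and 1.12 and 2.7 CPM in chief cells, a log2 difference of 1.74 (SE 0.47, adjusted p = 0.00897), and *Pttg1* was higher by 0.69. *Espl1* (-1.95) and *Plk1* (-1.11) were called lower in neck cells. Neither met the rule that each pool of the higher group has 10 or more UMIs and both pools move in 1 direction. Their calls are therefore uncertain. The count fell to 1 without pool K of chief cells and rose to 7 without pool T of neck cells.

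*Pttg1* was present in every cell type and highest in parietal cells among the epithelial clusters of dataset 2. In plain CPM it stood at 98.2 and 103 in parietal cluster 1 and 108 and 117 in parietal cluster 8, at 49.2 and 49.3 in neck cluster 0, at 42.2 and 42.1 in pre-pit cells and at 18.5 and 17.8 in chief cells. Cluster 19, which has 9 cells, had 108 and 171.1 from 3 and 7 UMIs. In dataset 1, clusters 13 and 11 outside the epithelial types (15 and 18 cells) had the highest means, 174 and 140. Parietal cells of dataset 1 had 123 and 105 and cluster 4-15 had 41.9 and 37.2. Parietal cells thus lay above every isthmus sum in both datasets, and in the fit over types the isthmus was lower than the mean of the other types by -0.40 (SE 0.06). *Pttg1* overlaps another protein-coding gene, *Slu7*, and whether the counting used strand is not given in the sources used here.

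A few other genes were also found in parietal or neck cells, at levels far below those of cluster 5. *Cenpa* stood at 17.1 and 22.2 plain CPM in parietal cluster 1 and 34.7 and 40.1 in cluster 8, and at 27.8 and 28.4 in parietal cells of dataset 1, against 1.93 and 2.61 in chief cells. After TMM scaling, which differs from plain CPM, *Cenpa* stood at 6.03 and 16.3 CPM in isthmus cluster 3 and 18.4 and 31.8 CPM in isthmus cluster 11. For *Cenpa*, parietal cells thus did not lie clearly below these 2 isthmus clusters. *Spc25*, which overlaps *Nostrin*, stood at 9.07 and 9.01 in cluster 1 and 7.17 and 7.39 in cluster 8. *Kif23* stood at 15.4 and 10.7 in neck cluster 0 and 11.7 and 8.55 in parietal cluster 1, against 0.770 and 1.83 in chief cells. For comparison, *Top2a* stood at 5.04 and 1.73 in parietal cluster 1 and 7.83 and 2.07 in cluster 8, and *Aurkb* at 1.01 and 1.39 and at 4.24 and 0.887.

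In dataset 1 the genes were high in a single cluster, 4-15, with 53 cells, in which the authors' calls put 34 cells in G2/M and 19 in S. In the fit of 14 sums, 40 genes were higher in it than in the other 6 epithelial types and *Pttg1* was not called, where 40.6% of all 10229 genes were called, 24.1% higher and 16.5% lower. The median log2 difference was 6.32, and 5.44 with the 10 genes that had at most 3 UMIs in every other sum set at their lower bound. *Aurkb* stood at 125 and 147 CPM in cluster 4-15, and the median over the other sums was 0. *Prc1* was at least 43.4-fold and *Anln* at least 26.9-fold higher, with 3 UMIs per sum as the floor. The sum of the 40 genes was 6974 and 6192 plain CPM in pools tube1 and tube2.

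Outside cluster 4-15, the antrum pre-pit cells of dataset 1 had the highest sum, 663 and 358 plain CPM, against 231 and 187 in corpus pre-pit cells and 123 and 424 in neck cells. *Ube2c* stood at 71.9 and 91.0 and *Ccna2* at 88.5 and 39.3 in the antrum pre-pit cluster. At least 10 of the genes were present in 3 of its 32 thinned cells, which held 51.2% of its thinned UMIs of the 41 genes. Without thinning 7 of 32 cells held 80.8%. In corpus pre-pit cells 7 of 46 held 63.4%, and in neck cells 5 of 45 held 69.6%.

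Other genes of the same machinery, from lists of genes outside the 41, went with them to different degrees. Between clusters 5 and 9, 29 of 30 other spindle, kinesin and cytokinesis genes were higher in cluster 5 and 0 lower, as were 35 of 39 other kinetochore and centromere genes, 14 of 17 condensin and cohesin genes and 7 of 17 subunits and regulators of the anaphase-promoting complex, where 7.7% of all genes were higher. *Cdca2*, which recruits a phosphatase to chromatin, differed by 3.87 and *Ncaph*, a condensin subunit, by 2.80. Of the complex's regulators, *Fbxo5*, its inhibitor, differed by 3.06, while its small subunit *Anapc16* differed by -0.14 (adjusted p = 0.39). Of 31 replication genes 21 were higher and 3 lower in cluster 5.

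Between clusters 5 and 6 these lists parted. Of the spindle, kinesin and cytokinesis genes 20 were higher in cluster 5 and 1 was lower, and of the kinetochore and centromere genes 7 were higher and 10 lower, where 8.46% of all genes were higher and 9.97% lower. All 31 replication genes were lower in cluster 5, with a median log2 difference of -2.21, and the cyclin *Ccne1* differed by -5.07. *Cdc25b*, a phosphatase of mitotic entry, was higher in cluster 5 by 1.71. Against the other types the isthmus was higher for 29 of 30, 38 of 39, 15 of 17, 10 of 17 and 31 of 31 genes of these lists, in the order spindle, kinetochore, condensin and cohesin, anaphase-promoting complex and replication, where 28.1% of all genes were higher.

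The mean profile of the 41 genes over the 14 epithelial clusters was compared with every other gene by Pearson's r, as a description over 14 points that share libraries and depth. The genes outside the list with the most similar profile were *Ckap2l* (0.992), *Spag5* (0.992), *Ncapg*, *Cep55* and *Tacc3* (0.990 each), *Shcbp1* (0.990), *Ska1*, *Knl1* and *Ckap2* (0.989 each) and *Iqgap3* (0.987). Within the list *Tpx2* and *Nuf2* were nearest to the mean profile (0.992 each), and *Pttg1* (-0.298), *Ccnb2* (0.858) and *Cenpa* (0.869) were furthest from it. In the current GENCODE annotation of GRCm39 the genes lie on 15 chromosomes, and 13 of them overlap another protein-coding gene, among them *Prc1* (*Rccd1*), *Cdk1* (*Ank3*), *Cdc20* (*Elovl1*), *Ube2c* (*Tnnc2*) and *Nusap1* (*Oip5*), while *Ccnb2*, *Cenpa* and *Aurkb* overlap none.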

How the data were processed

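The measurements were UMI counts per gene and cell. To make the deposited counts, the authors demultiplexed reads with bcl2fastq 2.20.0.422, aligned them to GRCm39 by STAR and a GENCODE annotation, counted UMIs using Drop-seq tools, removed cells with under 2500 detected genes, and clustered with Seurat without integration. The cell tables deposited by the authors also give mitochondrial percent and S and G2/M scores, from which phases were called. Whether counting used strand is not given in the sources used here. The 41 genes and all lists were chosen with earlier results of these data known.

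Counts were summed per cluster or cell type and pool and tested in R 4.3.3 with edgeR 4.0.16 (TMM, filterByExpr, quasi-likelihood test, Benjamini-Hochberg over all genes tested, adjusted p under 0.05), in 3 fits of 28, 12 and 14 sums. DESeq2 1.42.0 was an alternative, as were other size factors, no filter, the pool as a block, sums per plate, thinning to 10000 UMIs per cell, no cells over 2 times their cluster's median and each sum left out. Phase gene lists came from Seurat 5.3.0. No doublet caller was run. By design 1 cell was sorted per well, and whether any well held more was not tested. Genes named by rule were, per comparison, the 3 largest rises and the 3 largest falls or smallest changes counting only genes for which each pool of the higher group had 10 or more UMIs and both pools moved in 1 direction, and others were named by role or after their values were seen. Where a group had at most 3 UMIs in every sum, a fold is a lower bound. On simulated counts, 4-fold changes were called for 100 of 100 genes in each of 3 comparisons, and 2-fold changes for 25 (clusters 5 and 6, 12309 genes), 74 (isthmus, 13511 genes) and 69 (cluster 4-15, 9616 genes). Cells of a pool share mice, so the pool pairs the sums. Deviations of the same pool correlated with a median r of 0.174 over cell types, 0.110 over clusters and 0.0216 in dataset 1. The p-values rest on 2 pools per group.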

Additional observations from a re-analysis of the deposited data

Results flagged for a closer look

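Wells that the authors did not keep also held transcripts of the 41 genes. Any more than a few UMIs lie above the limit that a count of 0 allows, and no level of free transcripts was measured beside them. In dataset 1 they stood at 131.278 CPM in 1813 wells (396 UMIs, limit 0.995 CPM), against 1163 CPM in kept cells, and 3 of these wells held at least 10 of the genes. In dataset 2 they stood at 327.662 CPM in 615 wells (542 UMIs, limit 1.81 CPM), against 2264 CPM in kept cells, and 2 wells held at least 10. These limits cover counting error only.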

How the results depend on the processing

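The number of the 41 genes called stayed within 1.5 times its reported value in every comparison and alternative run, except in pre-pit against mature pit cells (6 genes called, 10 without the filter, 2 with thinned cells, 3 to 7 with 1 sum left out) and in neck against chief cells (4 called, 2 with thinned cells, 1 to 7 with 1 sum left out). Leaving out 1 sum gave 21 to 25 calls for clusters 5 and 6, 36 to 38 for 5 and 9, 40 to 41 for 5 and 3, 40 for 5 and 11, 34 to 37 for 6 and 9, 40 to 41 for 6 and 3 and for 6 and 11, 35 for 9 and 3, 40 to 41 for 9 and 11, 27 to 33 for 3 and 11, 41 for the isthmus and 40 for cluster 4-15. The direction turned for *Pttg1* between clusters 6 and 11 with thinned cells (0.26). Between clusters 9 and 3 it turned without deep cells and with thinned cells for *Kif18b* (-0.51 and -0.44), *Prc1* (-0.53 and -0.14), *Aurkb* (-1.10 and -0.71) and *Cdk1* (-0.97 and -0.49), of which *Prc1* was the one called before. The cause was not tested. With the pool as a replicate block the counts were 27 for clusters 5 and 6, 39 for 5 and 9, 9 for pre-pit against mature pit and 3 for neck against chief cells. In cluster 4-15, edgeR called 2468 genes higher and 1685 lower, and DESeq2 1409 and 850. With 2 pools per group, 2-fold differences between clusters 5 and 6 were often missed in simulated counts, in which every gene was given the same spread.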
